A study of Mus musculus with 12 samples.

Results

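The TNF superfamily and NF-kB signalling module comprised 39 of the 770 genes on the NanoString nCounter Neuroinflammation panel. Members were chosen by a rule on gene symbols that used no measured value, though earlier results of these data were known when it was chosen. They fell into 8 ligands, 10 receptors, 10 adaptors and death domain proteins, 5 genes of the IKK kinases and 6 genes of the NF-kB subunits and their inhibitors. All 39 symbols matched the RefSeq mouse gene table.

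RNA was counted in fixed, sorted mouse microglia, the resident macrophages of the central nervous system, to ask how aged cells that differ in ERK1/2 phosphorylation differ in transcripts from each other and from adult cells. Aged microglia were divided into P-ERK1/2 High (n = 4, numbered 2, 5, 7 and 8) and P-ERK1/2 Low (n = 4, numbered 3, 6, 9 and 12), and adult microglia (n = 4, numbered 1, 4, 10 and 11) were left undivided. The labels give C57B6 mice, untreated, with ages of 12 to 20 weeks for adult and over 80 weeks for aged. The study's methods give pools of the CNS of a male and a female for each sample, isolation on CD11b beads, and a gate on cells that carried a YFP reporter, had intermediate CD45 and lacked Ly6G, with the aged cells divided by staining for ERK1/2 phosphorylated at Thr202/Tyr204. The reporter was expressed from Cx3cr1, in mice that carried Cx3cr1-driven CreERT2. Tamoxifen had been given more recently to the adult mice than to the aged ones, so age and time since tamoxifen cannot be told apart. The adult cells were a mixture with respect to P-ERK1/2, so neither comparison with adult cells was made at matched phosphorylation. The title of adult sample 11 marks it as excluded for poor quality, and the adult values therefore rest on samples 1, 4 and 10, with sample 11 given beside them. No label says which P-ERK1/2 High and Low samples came from the same mice.

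TNF and its relatives are trimeric ligands that bind receptors of the TNF receptor superfamily. The receptors recruit TRAF and RIPK adaptors, which activate the IKK complex of Chuk, Ikbkb and the scaffold Ikbkg. IKK marks the inhibitor encoded by Nfkbia for degradation, which frees NF-kB dimers to enter the nucleus, and Nfkbia is itself a classical NF-kB target gene, so that the pathway feeds back on itself. In microglia, Tnf is one of the main cytokine genes of the inflammatory response.

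The stretches before the start sites of Nfkbia, Nfkb2 and Tnf are shown because Tnf and Nfkbia were the 2 members called in P-ERK1/2 Low against adult microglia, and because Nfkb2, a known NF-kB target like Nfkbia, fell in P-ERK1/2 High against adult microglia while Nfkbia rose. Each runs from base -100 to base -1, 5′ to 3′ on the strand of the gene (RefSeq, GRCm38.p6), with matches to the consensus NF-kB motif on either strand in capitals.
Nfkbia, chr12:55492648-55492747, minus strand: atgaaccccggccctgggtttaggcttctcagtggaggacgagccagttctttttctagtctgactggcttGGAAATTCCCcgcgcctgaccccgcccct
Nfkb2, chr19:46304637-46304736, plus strand: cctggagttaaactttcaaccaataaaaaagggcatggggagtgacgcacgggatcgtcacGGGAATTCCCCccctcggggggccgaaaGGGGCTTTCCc
Tnf, chr17:35202008-35202107, minus strand: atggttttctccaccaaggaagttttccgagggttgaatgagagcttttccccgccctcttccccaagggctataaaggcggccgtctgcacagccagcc
The first run of capitals in Nfkb2 holds overlapping matches on both strands. Over the 250 bases before each start, the motif occurred in 6 of the 30 members with a listed window (20%: Ltb, Nfkb2, Nfkbia, Nfkbie, Tnfrsf25 and Traf3), in 80 of 601 panel genes with a window (13.3%) and in 2225 of all 27025 RefSeq genes (8.23%). The match in a window is a description of its letters, and bases further upstream were not searched.

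The deposited values are counts scaled by the authors so that 13 housekeeping genes have the same geometric mean in every sample, and they are called normalized values here. Unscaled totals ran from 650965 to 1539936 counts per P-ERK1/2 High sample, 123798 to 157209 per Low sample and 137980 to 326575 per kept adult sample, with 1464449 for sample 11. Background was set for each sample at 2 SD over the mean count of the 8 negative probes, and a gene had to exceed it to be counted as above background. Because of the depth this limit stood at normalized values of 26.1 to 39.5 in P-ERK1/2 High, 69.2 to 116.9 in Low and 37.9 to 95.1 in adult samples. In bulk samples of this kind, fewer cells of a type and less RNA per cell cannot be told apart. Of 8 microglia markers, 8 were above background in each High sample, 3 to 6 in the Low and 5 to 8 in the adult samples. P2ry12, Tmem119, Sall1 and Gpr34 were called as higher in High than in Low, and P2ry12 also than in adult microglia. Olfml3 and Fcrls were instead called as lower in both aged groups than in adult microglia, and Tmem119 as lower in Low. Under 5 other scalings of the samples, the 3 calls in Low against adult remained, and each of the calls of High was lost under at least 1. Csf1r made up the largest share of the summed level and was 1195 to 1838 in High, 2602 to 2937 in Low and 1655 to 2053 in adult samples. The summed normalized value of the 8 markers was 2851 to 3544 in High, 3371 to 3692 in Low and 3487 to 3801 in adult samples.

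Of the 39 members, 27 were above background in all 4 P-ERK1/2 High samples, 17 in all 4 P-ERK1/2 Low samples and 22 in all 3 adult samples. In none of the samples of a group above background were 4 members in High, 16 in Low and 11 in adult microglia. Ltb, Tnfsf8 and Tnfrsf25 were above background in none of the 11 kept samples.

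A gene was called when its log2 fold change lay beyond 1 in either direction and limma gave an unadjusted p under 0.01. In P-ERK1/2 High against Low, 9 members were higher and 3 lower, which is 30.8% of the module, against 37.8% of the whole panel (28.2% called upward and 9.61% downward). In P-ERK1/2 Low against adult, 2 members were higher and 0 lower (5.13%, against 10.8% of the panel, 8.05% and 2.73% by direction). The 2 were Tnf and Nfkbia. In P-ERK1/2 High against adult, 11 members were higher and 4 lower (38.5%, against 36.9% of the panel, 29.2% and 7.66% by direction). The groups did not overlap for 11 members that were higher and 5 lower in High against Low (all genes 31.3% and 18.1%), 5 and 6 in Low against adult (26.1% and 10.4%) and 13 and 6 in High against adult (35.1% and 15.2%), and in either direction this held for 49.4%, 36.5% and 50.3% of the panel. At an adjusted p under 0.05 by limma without a fold limit, 12 members were higher and 6 lower in High against Low (52.2% of the panel in either direction), 4 and 2 in Low against adult (26.1%) and 13 and 5 in High against adult (48.2%). The median log2 fold change of the members was 0.26 in High against Low, -0.03 in Low against adult and 0.18 in High against adult, and that of all genes was 0.26, 0.10 and 0.35. These shares were near or under those of the whole panel, so the counts are no result about the module, and the values of single genes follow. Beside the deposited scaling, 5 others were tried, namely by the median of ratios, by the total count, by the 6 most stable housekeeping genes, by quantiles and none, and where the call of a member ended under any of them, that is said beside it. Calls that arose only under another scaling are not all given. The 3 comparisons share samples, so their values are set side by side and not counted as separate support.

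**Figure D1:**
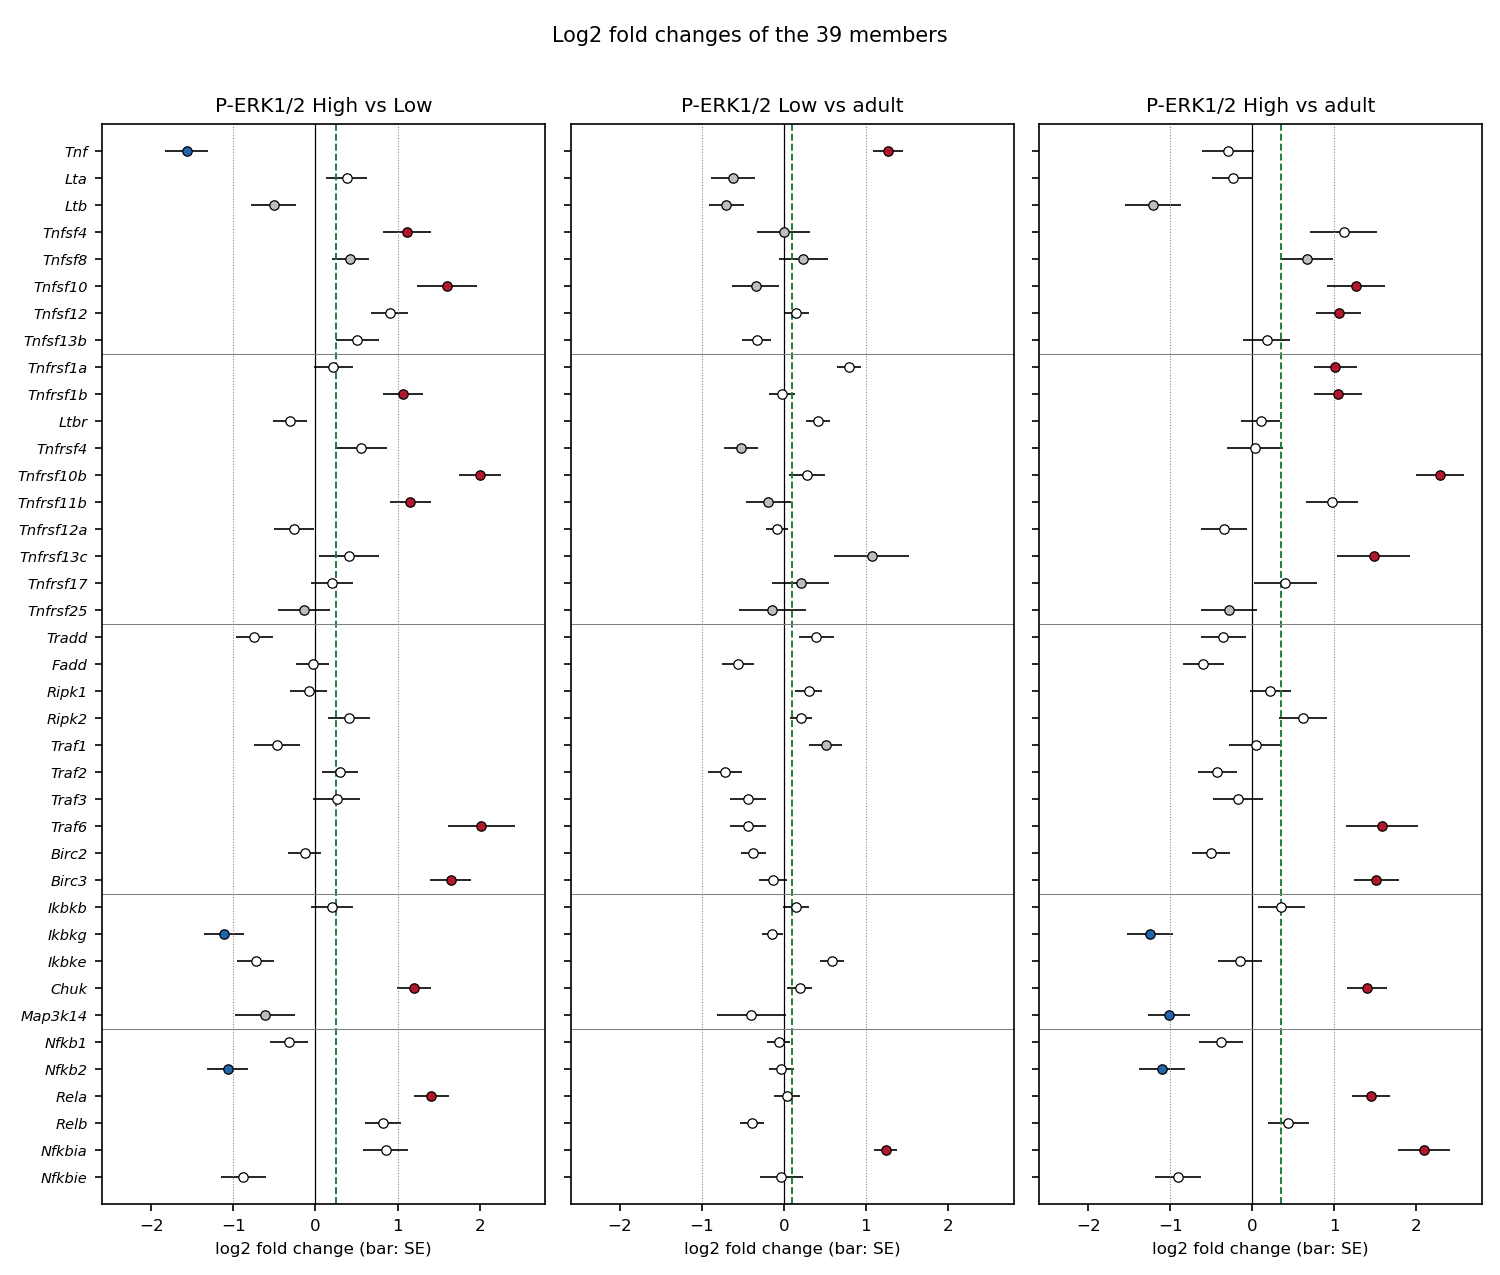
Log2 fold change of each of the 39 members (points) with its standard error (bars) in the 3 comparisons, grouped from top to bottom into ligands, receptors, adaptors, IKK kinases and NF-kB subunits with inhibitors. Red and blue points passed the limits as higher or lower, grey points are genes that did not exceed background in any sample compared, white points did not pass, dotted lines mark 1 and -1, and the green dashed line is the median of all 770 genes; Tnf lies at -1.57 in High against Low and at 1.27 in Low against adult.

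Among the ligands, Tnf, the founding cytokine of the family, was highest in P-ERK1/2 Low microglia. Its normalized value was 548, 416, 263 and 545 in P-ERK1/2 High samples 2, 5, 7 and 8, was 1189, 1318, 1190.5 and 1358 in Low samples 3, 6, 9 and 12, and was 551, 406 and 637 in adult samples 1, 4 and 10. Every Low sample lay above every High and adult sample, while High and adult samples overlapped. Tnf fell in P-ERK1/2 High against Low (log2 fold change -1.57 ± 0.26 SE, limma adjusted p = 0.000453) and rose in Low against adult (1.27 ± 0.18, limma adjusted p = 0.00256). High against adult gave -0.30 ± 0.32 (limma adjusted p = 0.463), which did not pass the limits. Both calls of Tnf remained in every fit that left out 1 sample, at -1.69 to -1.34 and at 1.09 to 1.41. They did not remain under every scaling. The call against Low was lost with 6 housekeeping genes (-0.80) and without scaling (0.11, the other direction), and the call in Low against adult was lost with quantiles (0.84), total counts (0.88) and no scaling (0.42). Sample 11 had a Tnf value of 472, inside the adult range. The genes on either side of Tnf on chromosome 17, Ltb and Lta, which encode lymphotoxin chains made mainly by lymphocytes, were near background. Lta was above background in 2 High samples and in 0 Low and 0 adult samples, at 20.3 to 51.9 over the 11 kept samples, and Ltb in none, at 10.1 to 43.1. The call of Ltb as lower in High than in adult microglia (limma adjusted p = 0.0133) therefore rested on values at background in both groups, and it was lost without High sample 2, 5 or 8 or adult sample 1 or 10, with log2 fold changes of -1.47 to -0.997 over all such fits, and with 6 housekeeping genes (-0.51) or no scaling (-0.41).

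Tnfsf12, the gene of TWEAK, was 487, 879, 591 and 678 in the High samples, 322, 368, 342 and 345 in the Low samples and 261, 309.8 and 366 in the adult samples, listed in the same order as for Tnf. All High samples lay above all Low and adult samples. The gene rose in High against adult (1.05 ± 0.27, limma adjusted p = 0.00958), a call lost without High sample 5 (0.91) or adult sample 1 (0.93) and with median of ratios (0.66), quantiles (0.20) and total counts (-0.36), and stayed under the fold limit in High against Low (0.90 ± 0.23, limma adjusted p = 0.00589). Sample 11 stood above all of them, at 969.6.

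Tnfsf10, which encodes TRAIL, a ligand of death receptors, was 63.3, 54.3, 145 and 53.2 in the High samples, each above background, and 40.7, 17.5, 18.7 and 20.5 in the Low and 31.8, 26.8 and 29.6 in the adult samples, none above it. It was called as higher in High against Low (limma adjusted p = 0.00315), where the Low background allowed no lower bound over 1-fold, and in High against adult (limma adjusted p = 0.0133), where it was at least 1.16-fold higher with the deposited scaling and all samples. High sample 7 held more than the other 3 High samples, and without it the log2 fold change was 0.93 against adult, under the limit. That call was also lost without any 1 of the adult samples, at 1.20 to 1.32, and with median of ratios (0.87) and total counts (-0.11), and the call against Low was lost with total counts (0.60). Tnfsf4, the gene of OX40 ligand, was 41.4, 51.5, 82.0 and 30.4 in the High samples, 23.7, 17.5, 21.4 and 24.6 in the Low samples and 31.8, 11.6 and 27.2 in the adult samples. High and Low samples did not overlap, but again 0 Low samples reached background, so the call in High against Low (limma adjusted p = 0.00714) carried no bound on the fold, and it was lost without High sample 7 (0.86) and with median of ratios (0.83), quantiles (0.89) and total counts (0.12). Tnfsf13b, the gene of the B cell survival factor BAFF, and Tnfsf8, the gene of CD30 ligand, passed in 0 of the 3 comparisons. Tnfsf13b ranged from 28.1 to 71.9 over the kept samples and Tnfsf8 from 4.54 to 14.6.

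**Figure D2:**
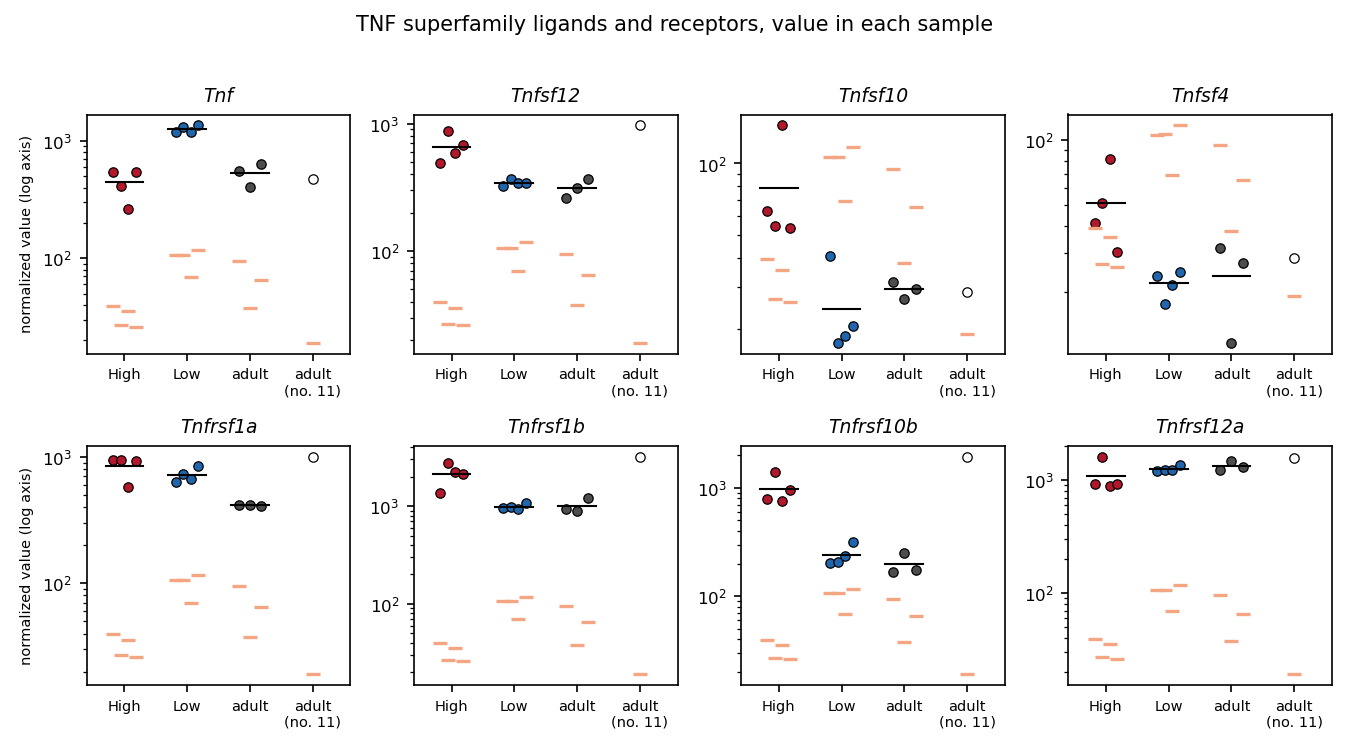
Normalized value (log axis) of 4 ligands (upper row) and 4 receptors (lower row) in each sample, with black lines at the group means and orange ticks at the background limit of each sample. Tnf was 1189 to 1358 in the 4 P-ERK1/2 Low samples against 263 to 548 in High, and for Tnfsf10 and Tnfsf4 the points of the Low and the kept adult samples lie under their own background ticks; the open circle is adult sample 11, left out of the means.

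Among the receptors, the clearest difference was that of Tnfrsf10b, the mouse receptor for TRAIL, which carries a death domain. It was 796, 1412, 759 and 949 in the High samples, 203, 207, 233 and 316 in the Low samples and 168, 248 and 175 in the adult samples. The lowest High sample was above 2 times the highest Low or adult sample, and Low and adult samples overlapped. Tnfrsf10b rose in High against Low (2.00 ± 0.26, limma adjusted p = 7.87e-05) and against adult (2.28 ± 0.29, limma adjusted p = 0.00014), in all fits that left out 1 sample. Both calls were lost with total counts (0.98 and 0.87) and remained under the other 4 scalings. In sample 11 it was 1931, above every other sample.

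The TNF receptors differed from each other. Tnfrsf1b, which encodes the receptor without a death domain, was 1367, 2776, 2253 and 2145 in the High samples, 959, 971, 939 and 1075 in the Low samples and 942, 885 and 1208 in the adult samples. High samples did not overlap with the Low or kept adult samples, while sample 11 was at 3188, above every High sample. Tnfrsf1b rose in High against Low (1.07 ± 0.24, limma adjusted p = 0.00327) and against adult (1.05 ± 0.29, limma adjusted p = 0.013), and Low and adult samples overlapped (-0.03 ± 0.16). The call against Low was lost without High sample 5 (0.93), and the call against adult without High sample 5 or 8 or adult sample 1 or 4 (0.90 to 1.03). Median of ratios, quantiles and total counts also ended both, at 0.80, 0.51 and 0.04 against Low and at 0.66, 0.04 and -0.37 against adult.

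Tnfrsf1a, the receptor with a death domain that most cells carry, was instead higher in both aged groups than in adult microglia. Its values were 942, 948, 577 and 931 in the High samples, 634, 733, 671 and 841 in the Low samples and 415, 415 and 405 in the adult samples. All aged samples lay above all kept adult samples, and High and Low samples overlapped. Sample 11 was at 997.5, above every aged sample. Tnfrsf1a rose in High against adult (1.01 ± 0.26, limma adjusted p = 0.00906), whereas the difference of 0.80 ± 0.15 in Low against adult (limma adjusted p = 0.00681) stayed under the fold limit and was -0.06 without scaling. The call against adult was close to the limit and was lost without High sample 2, 5 or 8 or adult sample 1 or 10 (0.95 to 1.02) and with median of ratios (0.62), quantiles (0.16) and total counts (-0.40). High against Low gave 0.22 ± 0.23 (limma adjusted p = 0.442).

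Tnfrsf11b, the gene of the soluble decoy receptor osteoprotegerin, was 35.3, 47.9, 65.1 and 45.6 in the High samples, 16.9, 28.1, 18.7 and 20.5 in the Low samples and 29.5, 15.1 and 29.6 in the adult samples. It was above background in 3 High samples and in 0 of the others, and its call in High against Low (limma adjusted p = 0.00245) had no bound over 1-fold and was lost with median of ratios (0.87), quantiles (0.91) and total counts (0.16). Tnfrsf13c, the gene of the BAFF receptor of B cells, was 15.8, 30.7, 17.97 and 10.1 in the High samples, 6.78, 14.02, 13.4 and 20.5 in the Low samples and 6.81, 2.33 and 9.88 in the adult samples. Of the kept samples, High sample 5 alone was above background, so the call in High against adult (limma adjusted p = 0.0185) rested on values near or under it, and it was lost without High sample 2, 5 or 7 or adult sample 1 or 4 and with median of ratios (1.06) and total counts (0.19). The other 5 receptors passed in 0 comparisons. Tnfrsf12a, the TWEAK receptor Fn14, was 885 to 1610 in High, 1216 to 1374 in Low and 1243 to 1474 in adult samples, and Ltbr, the lymphotoxin beta receptor, was 202 to 276, 273 to 345 and 211 to 243. Tnfrsf4, Tnfrsf17 and Tnfrsf25, receptors best known from lymphocytes, reached 74.1 at most, and Tnfrsf4 and Tnfrsf17 were above background in 3 High samples each and in 0 Low and 0 adult samples.

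Of the 10 adaptors and death domain proteins, Traf6 and Birc3 passed and the rest did not. Traf6, the ubiquitin ligase that links Toll-like and interleukin-1 receptors to NF-kB, was 152, 723, 275 and 256 in the High samples, 84.7, 56.1, 58.9 and 98.4 in the Low samples and 99.8, 99.0 and 96.4 in the adult samples. All High samples lay above the Low and kept adult samples, with High sample 5 more than 2 times as high as any other kept sample, and 0 Low samples were above background. Traf6 was at least 3.04-fold higher in High than in Low (limma adjusted p = 0.00163), and High against adult gave 1.58 ± 0.44 (limma adjusted p = 0.0129), a call lost without any 1 of the adult samples. With total counts both calls were lost (0.99 and 0.18). Sample 11 held 1104, more than all others.

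Birc3 encodes an inhibitor of apoptosis that binds TRAF proteins and is a known NF-kB target. It was 235, 277, 435 and 261 in the High samples, 115, 102, 77.6 and 82.0 in the Low samples and 99.8, 100.2 and 106 in the adult samples. High samples were apart from all others and Low and adult samples overlapped. Birc3 rose in High against Low (1.65 ± 0.25, limma adjusted p = 0.000274) and against adult (1.51 ± 0.27, limma adjusted p = 0.00116), in all fits that left out 1 sample, but not with total counts (0.62 and 0.11). Its relative Birc2, the neighbouring gene on chromosome 9, did not pass in any comparison and was 71.8 to 91.0 in High, 73.8 to 96.3 in Low and 101 to 122.5 in adult samples.

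The adaptors that sit directly on the TNF receptors showed no called difference with the deposited scaling. Tradd, which binds the death domain of Tnfrsf1a, was 43.1 to 70.1 in High, 74.9 to 107 in Low and 52.4 to 84.0 in adult samples, and High against Low gave -0.74 ± 0.23 (limma adjusted p = 0.0156), under the fold limit. Ripk1, the kinase of the same complex, was 117 to 182, 126 to 183 and 114 to 135. Traf2, the adaptor that recruits Birc2 and Birc3, was 132 to 161, 96.3 to 154 and 159 to 225, so that every Low sample was below every adult sample (-0.72 ± 0.21, limma adjusted p = 0.0378), again under the fold limit. Traf3, a brake on the alternative NF-kB pathway, was 106 to 223, 88.1 to 164 and 141 to 178, and Ripk2, the kinase downstream of NOD receptors, was 122 to 246, 104 to 123 and 93.9 to 105. Fadd, which couples death receptors to Casp8, and Traf1, an NF-kB-induced TRAF, were near background, at no more than 63.5 and 50.8.

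In the IKK complex the subunits moved in opposite directions. Chuk, the alpha kinase subunit, was 579, 821, 613 and 661 in the High samples, 254, 323, 276 and 304 in the Low samples and 225, 249 and 284 in the adult samples. High samples stood apart, and Low and adult samples overlapped. Chuk rose in High against Low (1.20 ± 0.21, limma adjusted p = 0.000641) and against adult (1.39 ± 0.24, limma adjusted p = 0.000978), in all fits that left out 1 sample. The call against Low was lost with median of ratios (0.93), quantiles (0.60) and total counts (0.18), and the call against adult with quantiles (0.55) and total counts (-0.02, the other direction). Ikbkg, the scaffold subunit NEMO, was 142, 82.2, 163 and 123 in the High samples, 244, 280.5, 276 and 275 in the Low samples and 279, 292 and 316 in the adult samples. Every High sample lay below every Low and kept adult sample. It fell in High against Low (-1.11 ± 0.24, limma adjusted p = 0.00264), a call lost without High sample 5 (-0.92), and against adult (-1.25 ± 0.28, limma adjusted p = 0.0044). Both calls were lost with 6 housekeeping genes (-0.34 and -0.54) and without scaling (0.56 and -0.43). Ikbkb, the beta kinase subunit, overlapped between all groups, at 207 to 405 in High, 198 to 280.5 in Low and 193 to 226 in adult samples, and passed in 0 comparisons. Sample 11, the excluded adult library, had the highest Chuk value of all 12 samples, 942, and the lowest Ikbkg value, 7.76, under its background limit of 19.1.

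The 2 remaining kinases were low. Ikbke, an IKK-related kinase of the interferon response, was 42.6 to 72.9 in High, 86.2 to 93.6 in Low and 49.4 to 67.5 in adult samples. Low samples lay above all others, at 0.58 ± 0.15 against adult (limma adjusted p = 0.0244) and with High at -0.73 ± 0.23 against Low (limma adjusted p = 0.0164), both under the fold limit, and 1 of the 4 Low values was above its background. Map3k14, the NIK kinase of the alternative pathway, was 23.1, 17.9, 28.1 and 25.3 in the High samples, 61.0, 52.6, 16.1 and 32.8 in the Low samples and 52.2, 53.6 and 39.5 in the adult samples. The call as lower in High than in adult microglia (limma adjusted p = 0.00835) rested on values at background in both groups, with 1 adult and 0 High samples above it, so no fold is given, and it was lost without High sample 5 or adult sample 1 or 4, with 6 housekeeping genes (-0.31) and without scaling (-0.21).

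The NF-kB genes divided as well. Rela, the main activating subunit of the classical pathway, was 587, 794, 621 and 699 in the High samples, 224, 252, 227 and 312 in the Low samples and 234, 249 and 252 in the adult samples. High samples lay far above the Low and kept adult samples, which overlapped, while sample 11 was at 669, within the High range. Rela rose in High against Low (1.41 ± 0.21, limma adjusted p = 0.000263) and against adult (1.45 ± 0.23, limma adjusted p = 0.000598), in all fits that left out 1 sample. Quantiles (0.85 and 0.61) and total counts (0.39 and 0.04) ended both calls. Its usual partner Nfkb1 was 246 to 428 in High, 337 to 398 in Low and 355 to 419.7 in adult samples, with no call. In the alternative pathway, Nfkb2 was 153, 75.8, 115 and 93.8 in the High samples, 207, 214, 217 and 258 in the Low samples and 256, 212 and 217 in the adult samples. Every High sample was below every Low and kept adult sample, while sample 11 was at 89.2, within the High range. Nfkb2 fell in High against Low (-1.07 ± 0.25, limma adjusted p = 0.00352), a call lost without High sample 5 (-0.91) or Low sample 12 (-0.9994), and against adult (-1.10 ± 0.28, limma adjusted p = 0.00915), a call lost without High sample 5 (-0.94) or 8 (-1.04) or adult sample 1 (-1.01). Both were lost with 6 housekeeping genes (-0.30 and -0.39) and without scaling (0.59 and -0.28). Its partner Relb was 281, 362, 451 and 323 in the High samples and 173 to 222 in the Low samples, which did not overlap (0.82 ± 0.22, limma adjusted p = 0.00796, under the fold limit), and 243 to 284 in adult samples.

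Nfkbia, the inhibitor gene, was higher in both aged groups. It was 1068, 1294, 564 and 1263 in the High samples, 579, 487, 569.8 and 570.2 in the Low samples and 240.5, 215 and 242 in the adult samples. All aged samples were at least 2 times as high as the highest adult sample, and 1 High sample, sample 7, lay within the range of the Low samples. Nfkbia rose in Low against adult (1.24 ± 0.14, limma adjusted p = 0.000913) and in High against adult (2.10 ± 0.32, limma adjusted p = 0.00039), in all fits that left out 1 sample, and High against Low gave 0.85 ± 0.28 (limma adjusted p = 0.021), under the fold limit. The call in Low was lost with total counts (0.85) and without scaling (0.39), and the call in High with total counts (0.68). Adding sample 11, where Nfkbia was 1463, to the adult samples gave 0.58 for Low and 1.43 for High against adult, and neither passed. Nfkbie, which encodes another inhibitor of the family, was at 24.3 to 41.8 in High, 40.1 to 74.5 in Low and 46.9 to 72.6 in adult samples, above background in 1 High, 0 Low and 1 adult sample.

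**Figure D3:**
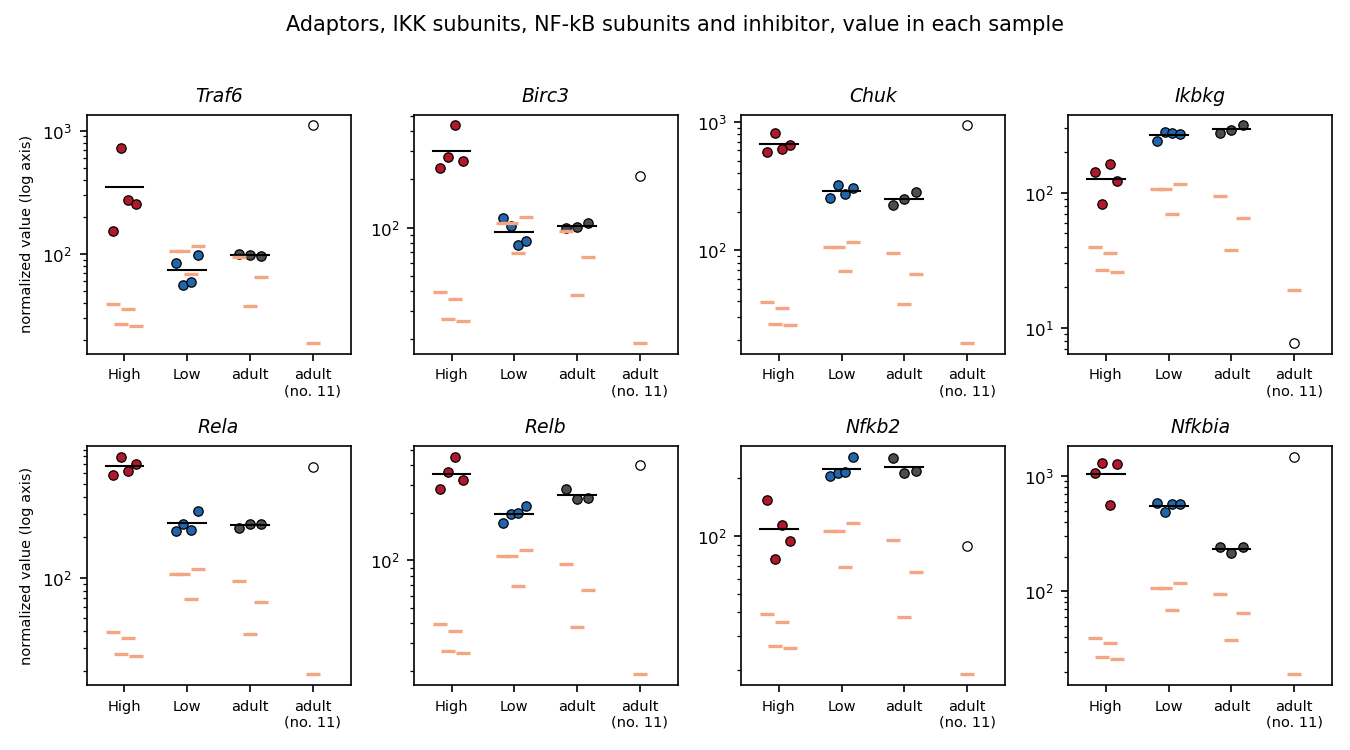
Normalized value (log axis) in each sample of 2 adaptors and 2 IKK subunits (upper row) and of 3 NF-kB subunits and the inhibitor gene Nfkbia (lower row), with black lines at the group means and orange ticks at each sample's background limit. Chuk lies at 579 to 821 in the 4 P-ERK1/2 High samples against 254 to 323 in Low, Ikbkg at 82.2 to 163 against 244 to 280.5, and adult sample 11 (open circle) is at 942 and 7.76.

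The ratio of 2 members within a sample is not changed by any scaling that multiplies the whole sample by 1 factor, though quantile normalization can change it, so 10 pairs of partners were compared in this way, with no test, because the pairs were chosen after their values had been seen. Each log2 ratio is given relative to the mean of the adult samples. Chuk over Ikbkg was 2.15 to 3.55 in the High samples, 0.23 to 0.43 in the Low samples and -0.08 to 0.08 in the adult samples. Rela over Nfkb1 was 1.54 to 1.98 in High and -0.01 to 0.30 in Low, and Relb over Nfkb2 was 0.70 to 2.08 in High and -0.43 to -0.29 in Low. In these 3 pairs every High sample stood above every Low and adult sample. Tnf over its receptor Tnfrsf1a was -1.53 to -1.12 in High, 0.35 to 0.56 in Low and -0.37 to 0.31 in adult samples, in the opposite order, and Tnf over Nfkbia was -2.81 to -2.13, -0.13 to 0.27 and -0.25 to 0.23. Nfkbia over Rela was instead 0.95 to 1.45 in Low, above adult samples at -0.13 to 0.12, and -0.06 to 0.94 in High. Tnfsf12 over its receptor Tnfrsf12a was 1.19 to 1.65 in High and 0.12 to 0.36 in Low samples. Tnfrsf1b over Tnfrsf1a was -0.93 to -0.69 in Low, below adult samples at -0.19 to 0.29, and overlapped with adult samples in High at -0.75 to 0.68. The remaining 2 pairs, Ikbkb over Ikbkg and Chuk over Ikbkb, were 0.91 to 2.81 and 0.74 to 1.24 in High samples and no higher than 0.51 in Low and adult samples. Sample 11 lay within the High range in Chuk over Ikbkb (0.92), Relb over Nfkb2 (1.99), Tnf over Tnfrsf1a (-1.42), Tnf over Nfkbia (-2.80), Tnfsf12 over Tnfrsf12a (1.40) and Tnfrsf1b over Tnfrsf1a (0.39). Its Ikbkg value was under background, so its ratios over Ikbkg are lower bounds, set with Ikbkg at that background. They were 5.86 for Chuk and 4.94 for Ikbkb, above every High sample. In Rela over Nfkb1 (1.25) sample 11 lay under every High and above every Low and adult sample, and in Nfkbia over Rela (1.21) it lay within the Low range.

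**Figure D4:**
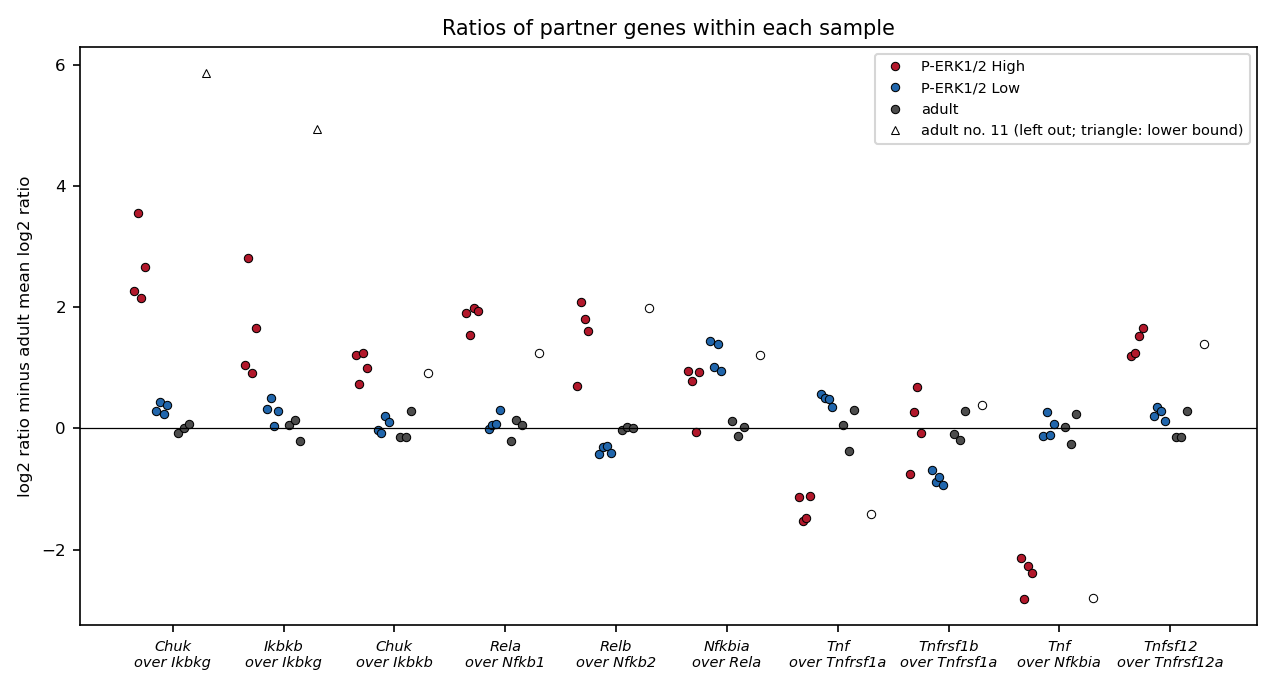
Log2 ratio of partner genes within each sample (points), relative to the mean of the 3 kept adult samples, for 10 pairs. Chuk over Ikbkg is 2.15 to 3.55 in P-ERK1/2 High and 0.23 to 0.43 in Low samples, Tnf over Nfkbia is -2.81 to -2.13 in High and -0.13 to 0.27 in Low samples, and adult sample 11 (open symbols, triangles for lower bounds) is at 5.86 or more for the first and at -2.80 for the second.

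The direction of single members depended on how the samples were scaled, since the median of all 770 genes in High against Low moved from 0.26 as deposited to 1.00 with the 6 most stable housekeeping genes, -0.01 with median-of-ratios scaling, -0.10 with quantile normalization, -0.74 with scaling to the total count and 1.86 without scaling. The members called in High against Low were accordingly 9 higher and 3 lower as deposited, 18 and 0 with 6 housekeeping genes, 5 and 5 with median of ratios, 4 and 6 with quantiles, 0 and 16 with total counts and 31 and 0 without scaling. In the same order 37.8%, 47.1%, 38.2%, 37.4%, 48.1% and 77.4% of all genes were called, against 30.8%, 46.2%, 25.6%, 25.6%, 41.0% and 79.5% of the members. In High against adult the same settings gave 11 and 4, 16 and 0, 6 and 5, 7 and 8, 0 and 22, and 15 and 0, with medians of all genes of 0.35, 1.03, -0.03, -0.05, -1.03 and 1.14 and with 36.9%, 46.6%, 36.4%, 36.5%, 52.2% and 45.3% of all genes called. In Low against adult they gave 2 and 0, 2 and 0, 2 and 0, 1 and 0, 0 and 2, and 0 and 12, with medians of 0.10, 0.04, -0.01, -0.04, -0.28 and -0.72 and with 10.8%, 10.3%, 10.3%, 11.3%, 10.8% and 31.2% of all genes called. Each of these scalings except quantile normalization multiplies a whole sample by 1 factor and so shifts all genes nearly alike, which fixes the distance of a gene from the median of all genes and makes that distance no sign of stability. Quantile normalization can change it. Tnf in High against Low lay at -1.83 from the median as deposited and at -1.92 with quantiles, Ikbkg at -1.37 and -1.32, Nfkb2 at -1.33 and -1.21, Tnfrsf10b at 1.74 and 1.58, Rela at 1.15 and 0.95 and Chuk at 0.94 and 0.70. In Low against adult the 2 values were 1.17 and 0.88 for Tnf and 1.14 and 1.10 for Nfkbia. In High against adult they were 0.66 and 0.21 for Tnfrsf1a, 0.70 and 0.09 for Tnfrsf1b and 0.70 and 0.25 for Tnfsf12.

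**Figure D5:**
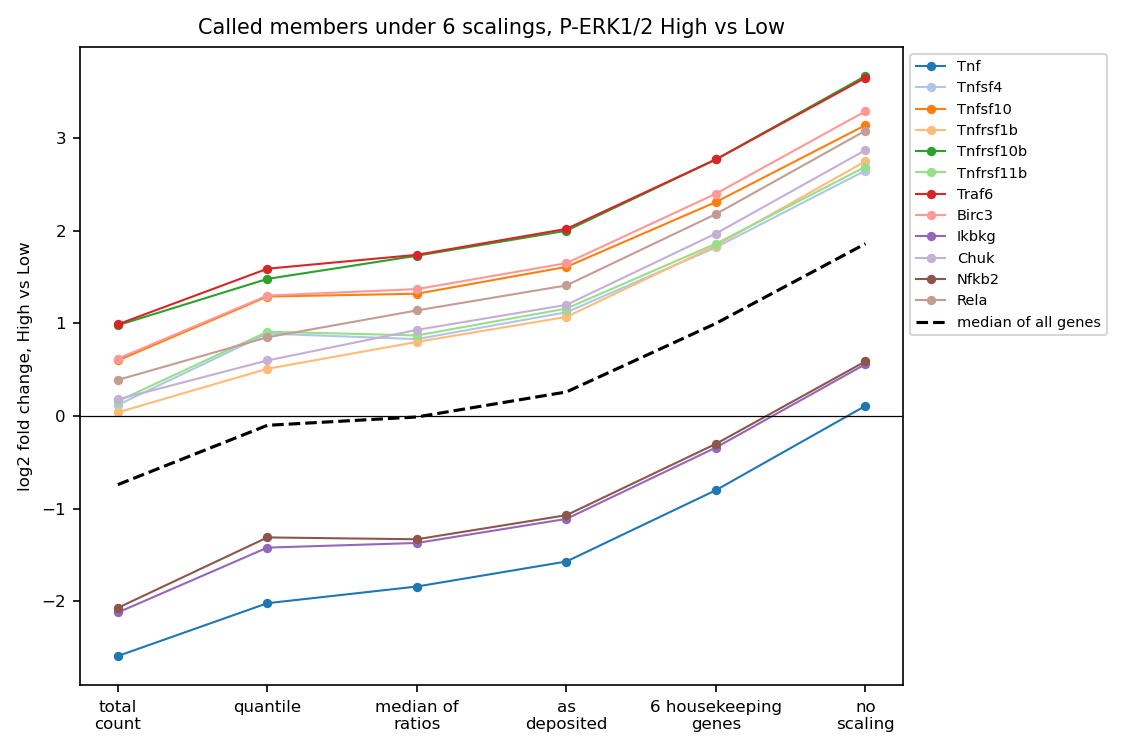
Log2 fold change in P-ERK1/2 High against Low of the 12 called members (coloured lines) under 6 ways of scaling the samples (horizontal axis), with the median of all 770 genes as a dashed line. The median runs from -0.74 to 1.86 and the members shift with it, which is fixed by construction for every scaling but quantiles, and Tnf, Ikbkg and Nfkb2 cross 0 without scaling (0.11, 0.56 and 0.59).

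Several measures of the samples moved with these differences. The P-ERK1/2 High samples and sample 11 had the largest total counts. Of the 11 members higher in High than in adult microglia, sample 11 lay above all kept adult samples for 10 and not below the High samples for 9, and of the 9 higher in High than in Low, it lay at or above the lowest High sample for 5. Tnfsf4, Tnfsf10 and Tnfrsf11b, at 28.7 each in sample 11, were inside the adult range there. No matching counts were made over all genes, where adding sample 11 took the calls in High against adult from 36.9% to 6.36%. The part of the total count in the results was not tested. Summed T and NK cell, endothelial and astrocyte markers were also higher in High than in Low samples without overlap, while the sums of the other lists overlapped or nearly did. The 18 T and NK cell markers summed to 510 to 1398 in High, 305 to 459 in Low and 243 to 510.5 in adult samples, with 4 to 12, 0 and 0 to 1 of them above background. Cd3e was the highest of the 18 in each High sample, at 112 to 801, and was above background in 0 Low samples. Cd6, Cd8a, Foxp3, Gzma, Klrb1 and Klrk1 were above background in 0 High samples. The 6 B cell markers summed to 222 to 502, 139.5 to 222 and 94.3 to 195 in High, Low and adult samples. Blk (103 to 261 in High) and Tcl1 (69.4 to 168) were above background in 4 of 4 High and 0 Low or adult samples and were called as higher in High against both, whereas Ms4a1 was above background in 0 of the kept samples. The 6 endothelial markers summed to 622 to 1257, 207 to 312 and 286.5 to 413, the 6 astrocyte markers to 1412 to 2143, 580.5 to 833 and 467 to 677 (Gja1, Kcnj10 and Sox9 were called as higher in High against both, while Slc1a3 was 14.6 to 46.3 in High and 40.7 to 86.2 in Low), the 7 neuron markers to 284 to 521, 201 to 283 and 200.3 to 257, the 7 neutrophil and monocyte markers to 328 to 801, 278 to 361 and 309.8 to 481 and the 7 oligodendrocyte markers to 166 to 324.5, 119 to 199.9 and 182 to 331. Of the neuron markers, Rbfox3, Syn2 and Gria2 were called as higher and Tubb3 and Nefl as lower in High than in Low, and of the oligodendrocyte markers 0 were called between High and Low. Ly6g and the endothelial marker Tie1 were above background in 0 of the kept samples. Tie1 was called as lower in High than in adult microglia (-1.04), while Esam and Flt1 were called as higher. Of the High samples, sample 5 had the largest sums of T and NK cell and of astrocyte markers and the highest High value of 18 of the 39 members. Sample 7 had the largest sums of the other 5 lists of other cells and the highest High value of 16 members, among them Tnfsf4, Tnfsf10, Tnfrsf4 and Tnfrsf11b. Without sample 5, 8 members were called as higher and 1 as lower in High against Low, with Tnfrsf1b, Ikbkg and Nfkb2 no longer called, while the calls over all genes went from 37.8% to 30.5%. Without sample 7 the counts were 9 and 3, with Tnfsf4 no longer called (0.86) and Nfkbia called (1.13), and 37.5% of all genes were called. Of the marker calls of other cells, 4 of 20 in High against Low and 0 of 17 in High against adult remained under all 5 other scalings. The part of other cells in the results was not tested.

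Of 13 further genes of the pathway that the symbol rule did not reach, 3 were higher and 1 lower in High against Low (30.8%, against 37.8% of all genes), 0 passed in Low against adult (against 10.8%), and 3 were higher and 2 lower in High against adult (38.5%, against 36.9%), shares near or under those of the panel. Bcl10, which links receptors with CARD proteins to IKK, had group means of 2084 ± 255 in High, 530.5 ± 48.5 in Low and 428 ± 44.2 in adult samples (SD), and rose by 1.97 ± 0.20 in High against Low (limma adjusted p = 1.51e-05) and by 2.28 ± 0.23 in High against adult (limma adjusted p = 5.64e-05). Bag4, a silencer of death domains, rose by 2.72 ± 0.32 and 2.57 ± 0.36, under all 5 other scalings as well. The calls of Bcl10 were lost with total counts (0.94 and 0.86). Casp8, the protease that Fadd recruits, fell in both (-1.23 ± 0.27 and -1.02 ± 0.30), calls lost with 6 housekeeping genes (-0.46 and -0.31) and without scaling (0.44 and -0.20). Cd70, a TNF family ligand, was higher in both, with 0 Low and 0 adult samples above background, but not with total counts (0.61 and 0.03) nor, against adult, with median of ratios (1.01). Cd40, a TNF receptor family member of antigen-presenting cells, was called as lower in High than in adult microglia with 1 sample of each group above background, a call lost with 6 housekeeping genes (-0.57) and without scaling (-0.47).

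Among 23 genes known as NF-kB targets, 7 were higher and 4 lower in High against Low, 6 and 3 in Low against adult, and 6 and 1 in High against adult (47.8%, 39.1% and 30.4%, against 37.8%, 10.8% and 36.9% of all genes). With the deposited scaling the targets moved in both directions. The chemokine gene Ccl2 rose in Low against adult (1.97 ± 0.22) and further in High (3.55 ± 0.56 against adult), and so did Ptgs2, the inducible cyclooxygenase (1.03 ± 0.28 and 3.13 ± 0.40), and Nlrp3, the inflammasome sensor (1.00 ± 0.16 and 2.37 ± 0.30). Ccl4, another chemokine, followed the pattern of Tnf, with a rise of 1.17 ± 0.17 in Low against adult and a fall in High against Low (-1.23 ± 0.24), and Ptx3, a pattern recognition molecule, did the same with 2.93 ± 0.18 and -3.00 ± 0.51. The survival genes Bcl2a1a (-1.26 ± 0.22) and Bcl2l1 (-1.19 ± 0.24) fell in High against Low, and Csf1 (2.53 ± 0.40), Cd83 (1.99 ± 0.43) and Il1a (2.38 ± 0.38) rose there. Il1rn, the interleukin-1 receptor antagonist, rose in Low against adult (1.71 ± 0.17), where Ccl5, Il1a and Lcn2 fell (-1.14 to -1.54). Of the 11, 9 and 7 calls of targets in the 3 comparisons, 3, 5 and 4 remained under all 5 other scalings. Those were Csf1, Ptgs2 and Ptx3 in High against Low, Ccl2, Ccl5, Il1a, Lcn2 and Ptx3 in Low against adult, and Ccl2, Csf1, Lcn2 and Ptgs2 in High against adult. The calls of Ptgs2 and Nlrp3 in Low against adult were lost under each of the 5 (0.17 to 0.97 and 0.15 to 0.94). Without scaling Ccl4, Bcl2a1a and Bcl2l1 in High against Low turned to 0.45, 0.42 and 0.48. The target list was written with earlier results of these data known, so its counts describe these genes and are no independent evidence.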

How the data were processed

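The deposited table held signal values for 770 genes and 14 control probes in 12 samples. The authors made the values in nSolver (version not given in the sources used here) by multiplying each count by 1 factor per sample, which brings the geometric mean of 13 housekeeping genes to 172.7, with no background subtracted. All 12 columns were matched to samples. Dividing by the factor gave whole counts for 97.9% to 100.0% of genes per sample (tolerance 0.1), and these counts gave depth and background.

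Each comparison was fitted in limma 3.58.1 (R 4.3.3) on log2(value + 1) over all 770 genes without a filter. Fold changes are on that scale, which understates the change of low genes. Calls required a log2 fold change beyond 1 together with an unadjusted p under 0.01, and the Benjamini-Hochberg adjustment ran over the 770 genes. The fit was tested on simulated data in which the deposited scaling was taken as correct and background was not modelled, so that test cannot judge either. Where 0 samples of a group were above background, the fold is a bound against that background ("at least"). It holds for the deposited scaling and all samples of the groups, not for other scalings. Every member may be named, with values per sample for those called in at least 1 comparison. The members, the lists of 13 pathway genes, 23 targets and 8 sets of cell markers, and the tests were chosen with earlier results of these data known. Samples are pools of different mice only as far as the study's methods say, and p-values measure the spread between these samples. Promoter windows came from RefSeq (GRCm38.p6).

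The alternatives were other pseudocounts, a filter on low values, other scalings, a shared spread, other call limits, sample 11 added and each sample left out.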

Additional observations from a re-analysis of the deposited data

Results flagged for a closer look

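Of 78 groups of 4 samples, 8 held a value whose gap to the nearest of the other 3 was over Dixon's 95% limit for its share of the range, where chance gives about 1 in 20. In P-ERK1/2 High microglia these were Tnfrsf12a in sample 5 (1610, against 885 to 935 in the other 3), Tnfrsf1a in sample 7 (577, against 931 to 948), Tnfsf10 in sample 7 (145, against 53.2 to 63.3) and Ltb in sample 7 (23.6, under background). In P-ERK1/2 Low microglia they were Ikbkg in sample 3 (244, against 275 to 280.5), Nfkbia in sample 6 (487, against 569.8 to 579), Tnfrsf12a in sample 12 (1374, against 1216 to 1241) and Tnfsf10 in sample 3 (40.7, under background).

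Adult sample 11, which entered no comparison as reported, held at least 2 times the highest kept adult value for 10 members. They were Tnfsf12 (969.6, against 261 to 366 in the kept adult samples), Tnfrsf1a (997.5), Tnfrsf1b (3188), Tnfrsf10b (1931, against 168 to 248), Tnfrsf13c (24.1), Ripk2 (242), Traf6 (1104, against 96.4 to 99.8), Chuk (942), Rela (669) and Nfkbia (1463, against 215 to 242).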

How the results depend on the processing

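Over the called members and alternatives, 424 of 546 log2 fold changes kept their direction and call, 113 kept the direction only and 9 reversed. In High against Low without scaling, Tnf became 0.11, Ikbkg 0.56 and Nfkb2 0.59. In High against adult with total counts, Chuk became -0.02, Tnfrsf1a -0.40, Tnfrsf1b -0.37, Tnfsf10 -0.11 and Tnfsf12 -0.36, and with sample 11 added Ikbkg became 0.02. The causes were not tested beyond the shift of all genes that each scaling brings. The number of members called in High against Low (12) became 31 without scaling. In Low against adult (2) it became 6 at an adjusted p under 0.05 without a fold limit, 12 without scaling, 1 with quantile normalization and 1 with sample 11 added. In High against adult (15) it became 9 with a pseudocount of 20 (23.1%, against 30.4% of all genes) and 2 with sample 11 added (5.13%, against 6.36%). Leaving out 1 sample at a time gave 9 to 13, 2 to 2 and 6 to 13 members, with 6 in High against adult without adult sample 1, 8 without High sample 5 and 10 without adult sample 4. Those last counts were 15.4%, 20.5% and 25.6% of the members, against 29.5%, 29.2% and 34.0% of all genes. Over all such fits 30.5% to 40.3%, 9.74% to 12.3% and 29.2% to 39.4% of all genes were called in the 3 comparisons. Of all 770 genes, 291 in High against Low became 596 without scaling. In Low against adult, 83 became 240 without scaling, 201 at an adjusted p under 0.05 without a fold limit and 34 with sample 11 added. In High against adult, 284 became 49 with sample 11 added. With a limit of 20 counts in place of the negative probes, members above it in 0 samples were 1 in place of 4 in High and 7 in place of 11 in adult microglia. No paired analysis was possible because the groups share no replicate number and the labels do not tie samples to the same mice. The planned count test was not run, since the control probes of the same columns were not scaled. Depth limits the Low samples most, where 16 members were above background in 0 samples.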
